A study of Arabidopsis thaliana with 60 samples.

Results

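A set of 53 Arabidopsis genes was up within 1 h on auxin, was still up at 6 h, and at 6 h lay near its control level in roots where an auxin repressor had been released with dexamethasone. The 53 were picked by rule from 32833 gene rows counted in roots. In both of the study's lines and in the DMSO control, the mean log2(CPM + 1) had to be at least 1 higher at 1 h and at least 1.5 higher at 6 h than at 0 h, where CPM is the count scaled to the library's total of gene counts. It also had to fall by less than 1 from its 1 h value, with at least 5 CPM at 6 h. The dexamethasone (DEX) value at 6 h had to lie within 0.3 of the DMSO value. Of 232 genes that met the conditions on DMSO in both lines, these 53 also met the condition on DEX. Another 136 were lower than the window in both lines, 4 were higher in both, and 39 met neither description.

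Measured values of DMSO at 0, 1 and 6 h and of DEX at 6 h therefore chose the genes, and they are given below as a description, without a test. The DEX groups at 0, 1, 2 and 4 h and the DMSO groups at 2 and 4 h took no part in the choice and carry the tests. These tests are still not free of the choice. A gene that stood near its raised DMSO level at 6 h under DEX was likely to be raised, and near DMSO, at earlier hours.

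The groups were pGATA23::shy2-2-GR with DEX, pGATA23::slr-1-GR with DEX, and the same 2 lines with DMSO, each at 0, 1, 2, 4 and 6 h on auxin. That makes 20 groups of 3 libraries. The shy2-2 and slr-1 forms are stabilised versions of the auxin repressors IAA3 and IAA14. Each was joined to the glucocorticoid receptor (GR) domain, which keeps a protein out of the nucleus until DEX binds it. The GATA23 promoter that drives both fusions is known for its activity in the founder cells of lateral roots, so the fusion proteins are limited to cells where it is active. All seedlings, controls included, carried a fusion gene, were moved at 4 d to 10 µM NPA (an inhibitor of auxin transport) for 22 h, and then spent 2 h on NPA with 10 µM DEX or with DMSO. At 0 h they went to 10 µM IAA, the natural auxin, again with DEX or DMSO. Each library pooled about 200 segments of the lower part of seedling roots. The labels give neither a course without IAA nor DEX on roots without a fusion, so auxin and the time since transfer cannot be told apart. The 1 h groups are known from the sample labels alone, since the series' design text names harvests at 0, 2, 4 and 6 h only. Nothing in the labels states that the 3 libraries of a group came from separate cultures, so the p-values below speak only of the variation among these libraries, which could be technical.

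Auxin acts by binding its receptor together with an Aux/IAA repressor, which is then destroyed. This frees the auxin response factors (ARFs), DNA-binding proteins that recognise the letters TGTC in promoters. Many of the genes then switched on encode Aux/IAA repressors themselves, or enzymes that inactivate auxin, and so limit the response. In the root, the same signal starts lateral roots from founder cells of the pericycle. IAA14 in its stabilised form is known to block this step, and stabilised IAA3 is known to impair the formation of lateral roots.

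The libraries held between 12146529 and 94077078 gene counts, with medians of 42975836.5 in shy2-2 and 39734826.5 in slr-1. Markers of root hair, endodermis, xylem, phloem and root cap were all detected at a mean of 1 CPM or more, 13 of 13 genes. The 2 leaf polarity genes summed to 0 to 4.12 CPM, with a median of 0, and reached their highest sums in groups that hold libraries high in photosynthesis RNA, 4.12 CPM in slr-1 DEX 0 h, 3.98 CPM in shy2-2 DEX 0 h and 3.18 CPM in shy2-2 DMSO 2 h. All 9 photosynthesis genes were present, with a summed level of 88.2 to 3540 CPM. In 8 libraries their mean log2 level was over 6 (6.01 to 8.27, against 2.63 to 5.94 in the other 52). In shy2-2 these were replicate 2 of DEX 0 h, replicate 3 of DEX 4 h, replicate 3 of DMSO 1 h and replicate 2 of DMSO 2 h. In slr-1, 2 libraries of DEX 0 h (replicates 1 and 2) and 2 of DMSO 2 h (replicates 1 and 3) were among them. By the run names, in either line the DEX and the DMSO samples at 2 h, and likewise at 4 h, were not sequenced together, so there run and treatment cannot be told apart. Tested differences within a run were shy2-2 DEX 2 h or 4 h and slr-1 DEX 1 h against DEX 0 h. DMSO 4 h against DMSO 2 h was within a run in both lines. The other differences from 0 h under DEX, 1 h in shy2-2 and 2 h and 4 h in slr-1, were between runs. Of the differences that chose the genes, DMSO 1 h against 0 h and DEX against DMSO at 6 h were between runs in both lines. So were DMSO 6 h against 1 h in shy2-2 and DMSO 6 h against 0 h in slr-1. Differences that did not choose the genes were between runs too. They were DMSO 2 h or 4 h against 0 h in slr-1, and 2 h or 4 h against 1 h in both treatments of shy2-2 and under DEX in slr-1. There run cannot be told apart from time or treatment.

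Under DEX, with the repressors released, the 53 genes rose almost without exception. Against DEX 0 h, 53 of 53 rose at 1 h in shy2-2, where 15.4% of all 21902 genes tested rose, and 53 of 53 rose in slr-1, against 13% of 21864 (edgeR quasi-likelihood test, Benjamini-Hochberg adjusted p under 0.05 over all genes). At 2 h, 52 of 53 rose in each line, against 12.9% of all genes in shy2-2 and 13.1% in slr-1. At 4 h, 53 of 53 rose in each line, against 15.1% of all genes in shy2-2 and 17.8% in slr-1. All 53 passed the filter on low counts in both lines. The median log2 fold changes at 1, 2 and 4 h were 2.4, 2.56 and 2.45 in shy2-2 and 2.17, 2.24 and 2.44 in slr-1, where the median of all genes lay between -0.03 and 0.01. Without the 8 libraries high in photosynthesis RNA the count at 1 h was 53 of 53 in shy2-2 and 50 of 53 in slr-1, where AT1G49450, AT1G51340 and BEL1 were no longer called. Their changes there were then 1.43, 1.0 and 0.78, against 1.37, 1.08 and 1.03 with all libraries. This fit left 1 library of DEX 0 h in slr-1, which is assumed to vary like the other groups. At 4 h the range was 1.29 to 8.30 in shy2-2 and 1.25 to 8.51 in slr-1. The single gene outside the 2 h calls was the same in both lines, AT1G51340, a MATE-family transporter. It stood at 0.84 ± 0.31 on the log2 scale in shy2-2 (SE, n = 3 libraries a group, edgeR adjusted p = 0.054) and at 0.50 ± 0.27 in slr-1 (edgeR adjusted p = 0.21).

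The 136 genes that fell outside the window on the low side rose under DEX as well: 129 in shy2-2 and 130 in slr-1 at 4 h, with medians of 2.24 in shy2-2 and 2.32 in slr-1. For DMSO 4 h against DMSO 0 h, the median of the 53 was 2.68 in shy2-2 and 2.51 in slr-1, and that of the 136 was 3.16 and 3.2. At 6 h, where the rule chose the genes, the medians of the 53 were 2.61 under DEX and 2.58 in DMSO in shy2-2, and 2.43 under DEX and 2.48 in DMSO in slr-1. Rising under DEX was therefore not particular to the 53.

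**Figure D1:**
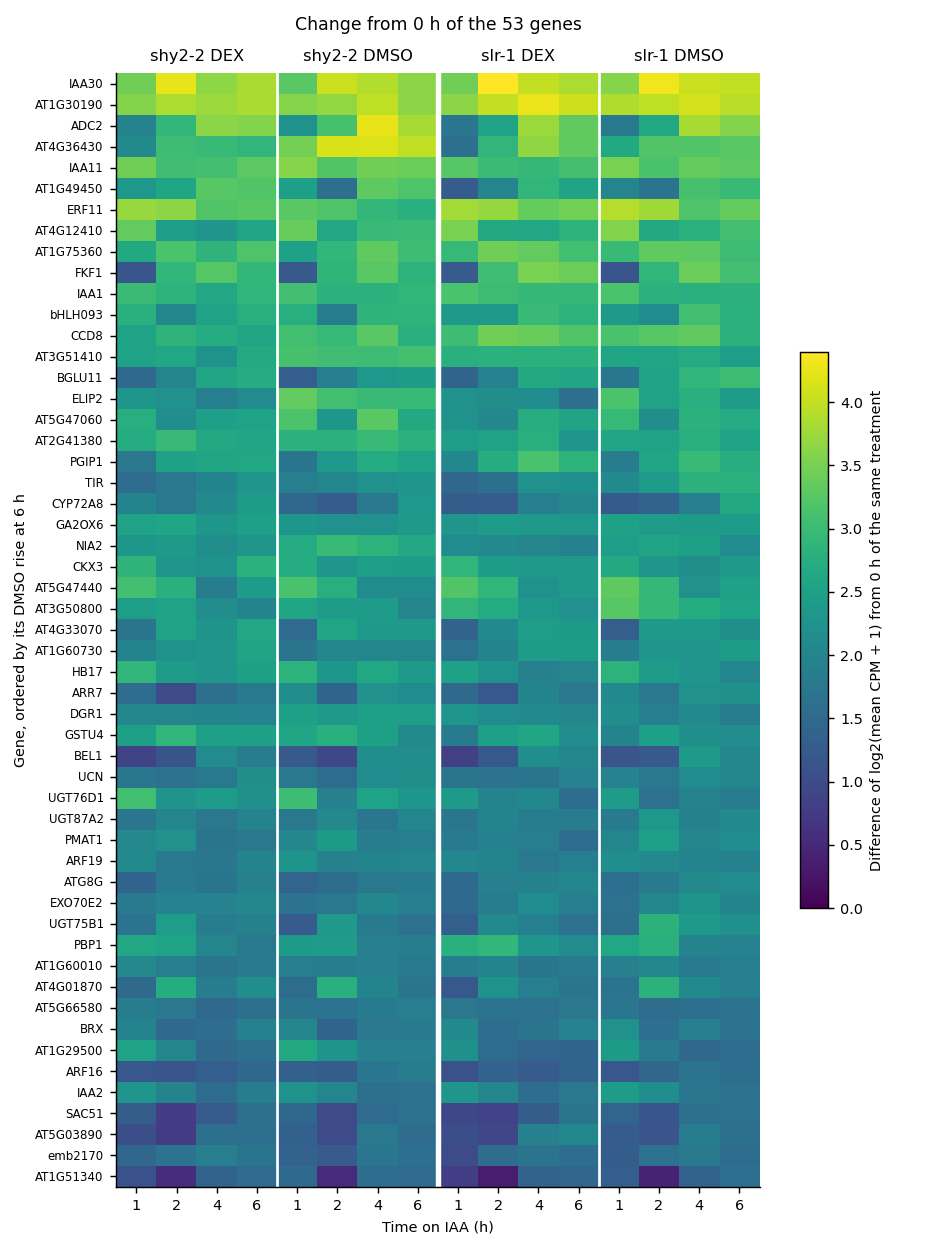
Colour gives the difference of log2(mean CPM + 1) from 0 h of the same line and treatment, for the 53 genes (rows) at 1, 2, 4 and 6 h on IAA (columns), each from the means of 3 libraries. The DEX and DMSO blocks of a line look alike in most rows, and rows differ in when they peak.

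The 4 Aux/IAA genes in the set were IAA30 (AT3G62100), IAA11 (AT4G28640), IAA1 (AT4G14560) and IAA2 (AT3G23030). IAA30 headed the set by its mean rise over both lines in DMSO at 6 h, although in shy2-2 AT4G36430 (3.98) and ADC2 (3.83) rose more than IAA30 (3.64) on the scale of the rule. It is one of the Aux/IAA proteins that lack the degron through which auxin marks the others for destruction. Under DEX in shy2-2 it had 2.93, 2.57 and 2.55 CPM at 0 h, 60.9, 59.7 and 85.6 CPM at 2 h and 59.9, 45.7 and 31.1 CPM at 4 h. Under DEX in slr-1 it had 1.71, 2.82 and 1.99 CPM at 0 h, 52.4, 78.9 and 65.1 CPM at 2 h and 56.7, 52.9 and 39.8 CPM at 4 h. Every library of 2 and 4 h lay far above the libraries of 0 h, and the log2 fold changes at 4 h were 4.10 ± 0.25 in shy2-2 and 4.52 ± 0.25 in slr-1.

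IAA1, a classic early auxin gene, had 22.1, 20.6 and 15.9 CPM under DEX in shy2-2 at 0 h, 176, 159.8 and 155 CPM at 1 h and 142, 130.2 and 108 CPM at 4 h. Its DMSO libraries of that line held 160, 175 and 176 CPM at 1 h and 148, 138 and 143 CPM at 4 h. In both treatments of shy2-2 all of its 1 h libraries lay above all of its 4 h libraries, which came from another run. The 4 h rise of IAA1 under DEX was 2.71 ± 0.14 in shy2-2 and 2.98 ± 0.10 in slr-1 on the log2 scale. For IAA11 the rise at 4 h under DEX was 3.23 ± 0.18 in shy2-2 and 3.02 ± 0.10 in slr-1. IAA2 rose by less, 1.57 ± 0.15 in shy2-2 and 1.55 ± 0.15 in slr-1. Under DEX in shy2-2 it had 389, 293 and 333 CPM at 4 h, against 102, 118 and 123 CPM at 0 h.

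The sequences before 3 of the genes are shown as examples of a word known as an auxin response element close to a gene, taken from the 12 genes with the largest rise. Each line gives the 250 bases before the annotated transcript start in TAIR10.1, 5′ to 3′ along the gene, read from RefSeq. Capitals mark a match to TGTCTC, to TGTCGG or to TGTCCC on either strand.
IAA1 (chr4:8360746-8360995, plus strand): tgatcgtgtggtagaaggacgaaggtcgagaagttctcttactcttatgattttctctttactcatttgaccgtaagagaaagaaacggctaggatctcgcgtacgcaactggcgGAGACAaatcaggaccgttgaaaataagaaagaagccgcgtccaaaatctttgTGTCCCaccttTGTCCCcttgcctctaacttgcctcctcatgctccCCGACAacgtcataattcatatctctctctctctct
ERF11 (chr1:9956981-9957230, minus strand): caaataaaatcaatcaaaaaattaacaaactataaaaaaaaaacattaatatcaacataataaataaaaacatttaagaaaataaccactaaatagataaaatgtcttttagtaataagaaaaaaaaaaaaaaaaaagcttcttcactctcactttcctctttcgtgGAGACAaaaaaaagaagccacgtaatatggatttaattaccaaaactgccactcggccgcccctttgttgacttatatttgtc
AT1G49450 (chr1:18305195-18305444, plus strand): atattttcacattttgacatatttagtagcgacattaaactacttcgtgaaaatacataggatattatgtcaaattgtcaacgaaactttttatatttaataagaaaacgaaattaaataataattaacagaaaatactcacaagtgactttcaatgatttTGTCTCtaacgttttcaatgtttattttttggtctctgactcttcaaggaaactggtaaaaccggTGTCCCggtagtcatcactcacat
IAA1 holds 4 matches, namely 1 to TGTCTC, 2 to TGTCCC and 1 to TGTCGG. AT1G49450 holds 2, and ERF11 holds 1, to TGTCTC. A match is a description of the sequence and not a binding site. Among the 53 genes, 11 (20.8%) had at least 1 of the 3 words in these 250 bases on either strand. The share was 25.7% of the 136 genes lower in DEX and 17.9% of 15188 annotated genes. The latter had at least 5 CPM in DMSO at 6 h in both lines. In 1000 bases the shares were 62.3%, 64.0% and 57.5%. The shares lay close together, and no difference between the sets was tested.

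The set holds 2 ARFs. ARF19 (AT1G19220) is an activator that works with ARF7 in lateral root initiation, and ARF16 (AT4G30080) belongs to the ARFs that act as repressors and are targets of the microRNA miR160. ARF19 had 213, 201 and 225 CPM at 1 h and 53.9, 49 and 46.6 CPM at 0 h under DEX in shy2-2, and 226, 225 and 239.6 CPM at 1 h and 62, 51.4 and 49.7 CPM at 0 h in slr-1. The 3 libraries of a group lay close together and the rise at 1 h was 2.1 ± 0.08 in shy2-2 and 2.1 ± 0.11 in slr-1 on the log2 scale. ARF16 rose by 1.23 ± 0.12 in shy2-2 and 1.13 ± 0.12 in slr-1 at 1 h, among the smaller rises of the set.

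Of 29 Aux/IAA genes, these 4 were members, 5 others (IAA3, IAA5, IAA13, IAA14 and IAA19) were among the 136 lower in DEX, and IAA18 and IAA29 met the rise with other DEX differences. Under DEX at 4 h, 22 of the 28 Aux/IAA genes tested rose and 1 fell in shy2-2, with a median of 1.36, and 21 rose and 1 fell in slr-1, with a median of 1.41. Of all genes 11.1% fell in shy2-2 and 16.3% in slr-1. Of 20 receptors and ARFs, only ARF16 and ARF19 were members, and ARF4 was among the 136. None of the 10 genes of auxin inactivation was a member, while 5, the GH3 enzymes GH3.1, GH3.2, GH3.3, GH3.5 and GH3.6, were among the 136. None of the 7 lateral root LBD factors was a member and 6 were among the 136. None of the 20 auxin transport genes was a member, while PIN3, PIN7 and the kinase gene PID were among the 136. The lists were drawn up with results of these data known, so the counts describe where the families fell.

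IAA3 and IAA14, the genes whose stabilised forms are in the fusions, and GATA23 and LBD16, founder cell genes, were all among the 136. GATA23 had 0.194, 0.21 and 0.113 CPM in DEX and 15.8, 16.7 and 12.5 CPM in DMSO at 4 h in shy2-2, and 0.772, 0.492 and 0.481 CPM in DEX and 29.9, 30.2 and 22.9 CPM in DMSO in slr-1. The groups were far apart in each line, with log2 fold changes of -6.44 ± 0.34 in shy2-2 and -5.63 ± 0.24 in slr-1 (edgeR adjusted p = 1.5e-11 and 9.1e-14). Counts for IAA3 and IAA14 can include reads from the fusion transcripts.

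At 2 h, none of the 53 genes differed between DEX and DMSO in either line by edgeR, where 0.594% of all genes were called in shy2-2 and 1.57% in slr-1. At an unadjusted edgeR p under 0.05 it was 1 gene in each line, SAC51 in shy2-2 and AT5G03890 in slr-1. Of all genes it was 1606 of 21902 in shy2-2 and 2100 of 21864 in slr-1. DESeq2 also called 0 of the 53 in both lines. The median log2 fold change, DEX over DMSO, was 0.00 in shy2-2 and -0.04 in slr-1. The 95% interval of the difference lay within 1 log2 unit on either side of 0 for 48 of the 53 in shy2-2 and 49 in slr-1. It did so for 80.5% of all genes tested in shy2-2 and 82.1% in slr-1. The median SE was 0.23 in shy2-2 and 0.18 in slr-1. Of the 136 genes lower in DEX at 6 h, 14 were already lower at 2 h in shy2-2, where 0.329% of all genes were, and 36 in slr-1, where 1.15% were.

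At 4 h a few of the 53 differed, named below. In shy2-2, 2 of 53 were lower in DEX and 0 higher, where 8.38% of all genes were lower and 2.47% higher. In slr-1, 4 of 53 were lower and 1 higher, where 12% of all genes were lower and 5.83% higher. When only the 2 groups compared were fitted, slr-1 had 3 lower and 4 higher: ARF19 was then not called, and CYP72A8, GSTU4 and PMAT1 were called higher. Both shares of lower genes in the set were below that of all genes tested, which the choice at 6 h made likely. Of the 136, 70 were lower in shy2-2 and 88 in slr-1. The 2 sets were separated by their 6 h values, so this difference at 4 h was not tested. The median of the 53 was -0.23 in shy2-2 and -0.03 in slr-1, with 51 of 53 genes below 0 in shy2-2 and 28 of 53 in slr-1. Without DMSO 4 h replicate 2 the slr-1 median was 0.04, with 23 of 53 below 0. At an unadjusted edgeR p under 0.05 there were 11 of the 53 genes in shy2-2 and 9 in slr-1. Of all genes it was 4983 of 21902 in shy2-2 and 6229 of 21864 in slr-1. DESeq2 called 3 of the 53 in shy2-2 and 6 in slr-1. With the replicate number as a block, AT5G66580 was also called lower in shy2-2, at -0.38 with an edgeR adjusted p of 0.035, against -0.37 and 0.11 without the block.

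The shift in shy2-2 went with 1 library. In DEX 4 h replicate 3, which was also high in photosynthesis RNA, 40 of the 53 genes had the lowest of the 3 values of their group, against 29.7% of the 15791 genes with a mean of 5 CPM or more. Without that library the median of the 53 was -0.08 and 35 of 53 lay below 0. For IAA11, the 3 DEX libraries of shy2-2 at 4 h held 109.5, 102 and 52.6 CPM, against 119, 133 and 105 CPM in DMSO, and for the uncharacterised gene AT1G75360 14.9, 13.5 and 3.6 CPM, against 15.5, 15.4 and 12.6 CPM. The third DEX library is the low one in both.

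The kinase gene UCN (AT1G51170, UNICORN, an AGC kinase known from ovule integuments) was lower in DEX in both lines at 4 h. It had 52.9, 51.8 and 38.8 CPM in DEX and 75.5, 72.3 and 70.8 CPM in DMSO in shy2-2, and 51.5, 44.4 and 40.0 CPM in DEX and 63.7, 70.7 and 65.1 CPM in DMSO in slr-1. All 6 DEX libraries lay below all 6 DMSO libraries, at -0.63 ± 0.13 in shy2-2 (edgeR adjusted p = 0.0018) and -0.58 ± 0.12 in slr-1 (edgeR adjusted p = 0.00096). Its call held under every alternative tried in both lines. At 6 h UCN stood at -0.27 in shy2-2 and -0.17 in slr-1 on the scale of the rule.

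ARF19 was the other gene called lower in both lines, with 168, 182 and 153 CPM in DEX and 196, 198 and 199 CPM in DMSO at 4 h in shy2-2, and 204, 173 and 184 CPM in DEX and 254, 221 and 216 CPM in DMSO in slr-1. The groups did not overlap, but the difference was small, -0.26 ± 0.08 in shy2-2 (edgeR adjusted p = 0.030) and -0.32 ± 0.11 in slr-1 (edgeR adjusted p = 0.039). Its call was lost under 9 alternatives in shy2-2 and 6 in slr-1, among them each fit without 1 DMSO library of 4 h in shy2-2.

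In slr-1, IAA11 and ARF16 were also lower in DEX. IAA11 had 84.5, 89.8 and 75.3 CPM in DEX and 120, 110 and 100.1 CPM in DMSO, without overlap, at -0.43 ± 0.09 (edgeR adjusted p = 0.00098). In shy2-2 the same gene stood at -0.46 ± 0.16 with an edgeR adjusted p of 0.078. ARF16 had 121, 99.6 and 108 CPM in DEX and 156, 163 and 124 CPM in DMSO in slr-1, at -0.45 ± 0.12 (edgeR adjusted p = 0.0081), and stood at -0.32 ± 0.12 in shy2-2 (edgeR adjusted p = 0.093). The ARF16 call in slr-1 was lost without DEX 4 h replicate 2. Whether the 2 lines differ in this contrast was not tested.

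The peroxidase gene AT4G36430 was the only one higher in DEX at 4 h, in slr-1. It had 26.5, 39.8 and 30.4 CPM in DEX and 21.3, 21.5 and 19 CPM in DMSO, at 0.62 ± 0.20 (edgeR adjusted p = 0.036), and the call was lost in 5 of the 6 fits without 1 library. In shy2-2 the value was -0.26 ± 0.43. At 1 h in slr-1, where the rule used the DMSO values and no test is given, the order was the other way, 8.06, 6.51 and 6.71 CPM in DEX and 13, 14.2 and 14.4 CPM in DMSO.

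**Figure D2:**
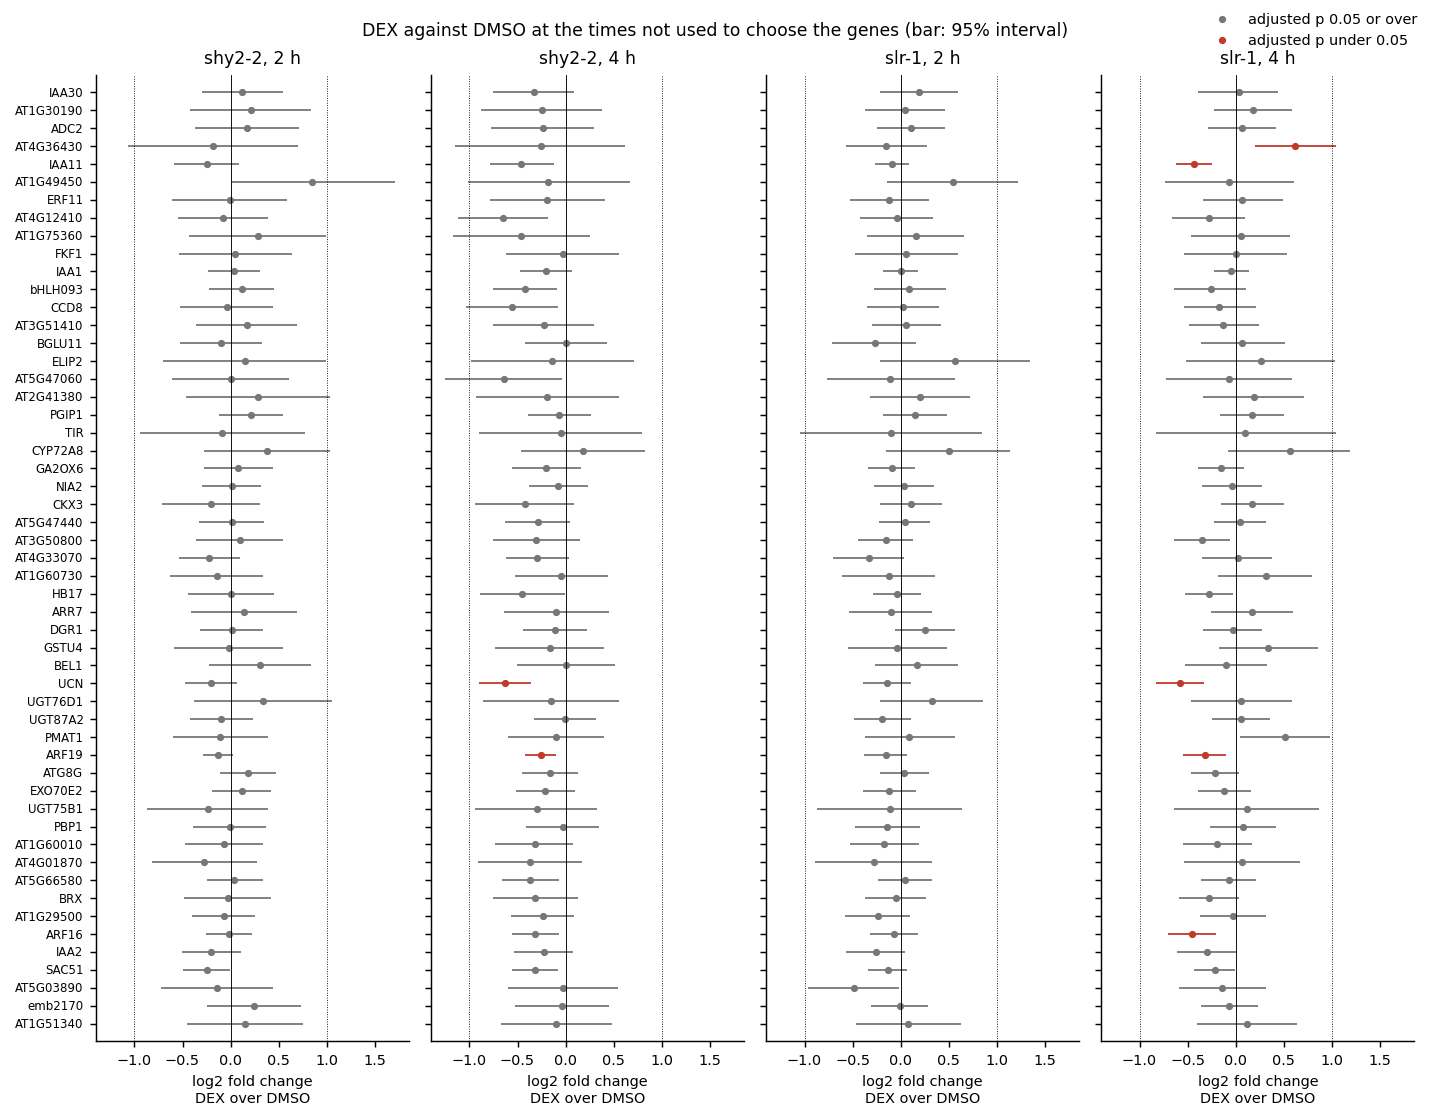
Each row is a gene of the set and each panel a line and time. Points give the log2 fold change of DEX over DMSO (3 libraries a group) with its 95% interval, red where the adjusted p was under 0.05, and dotted lines mark 1 and -1. Red points appear only at 4 h, and nearly all intervals stay between the dotted lines.

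On the scale of the rule, DEX minus DMSO of log2(mean CPM + 1), the medians of the 53 at 0, 1, 2, 4 and 6 h were -0.01, -0.04, 0.02, -0.19 and 0.01 in shy2-2 and 0.03, -0.13, -0.04, 0.00 and -0.02 in slr-1. The 6 h values are fixed by the choice. The window of 0.3 held 49 of the 53 genes at 2 h and 41 at 4 h in shy2-2. In slr-1 it held 47 at 2 h and 44 at 4 h. For comparison, shares were taken over the 15207 genes with at least 5 CPM in DMSO at 6 h in both lines. They were 93.1% at 2 h and 75.3% at 4 h in shy2-2, and 91.5% and 72.1% in slr-1. The set was close to these shares at 2 h in both lines and at 4 h in shy2-2. At 0 h the window held 43 of the 53 in shy2-2 and 44 in slr-1, against 96% of the 15207 genes in each line. At 1 h it held 49 in shy2-2 and 41 in slr-1, against 95.7% and 93.9%. The set thus lay below these shares at 0 h in both lines and at 1 h in slr-1. DMSO at 0 and 1 h took part in the choice, and no difference of shares was tested. The 136 genes had medians of -0.71 in shy2-2 and -0.89 in slr-1 at 4 h.

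**Figure D3:**
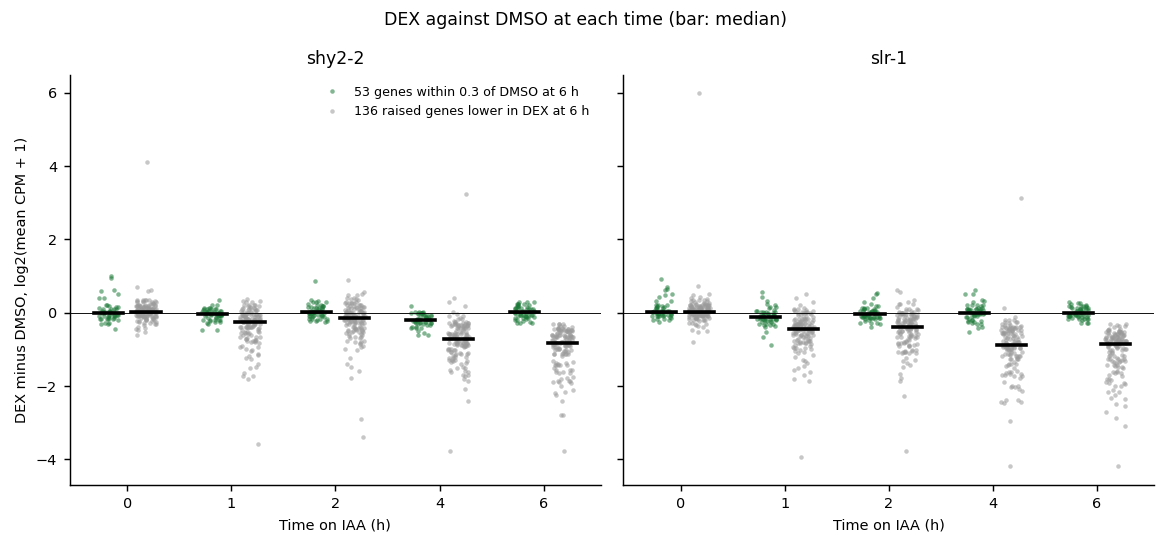
Each point is a gene, with DEX minus DMSO of log2(mean CPM + 1) on the y axis and hours on IAA on the x axis, for the 53 genes (green) and the 136 raised genes lower in DEX at 6 h (grey); black bars are medians. The green medians stay between -0.19 and 0.03, while the grey medians reach -0.71 in shy2-2 and -0.89 in slr-1 at 4 h; at 6 h both sets are as chosen.

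The genes differed in when they were highest. Under DEX the highest of the 5 group means fell at 1, 2, 4 and 6 h for 19, 13, 6 and 15 genes in shy2-2 and for 17, 10, 18 and 8 in slr-1. In DMSO it was 16, 10, 17 and 10 genes in shy2-2 and 18, 11, 17 and 7 in slr-1. Except in DMSO of slr-1, the 1 h group came from another run than the 2, 4 and 6 h groups. There hour and run cannot be told apart. From 2 to 4 h in DMSO, 11 of the 53 rose and 1 fell in shy2-2, where 6% of all genes rose and 4.55% fell. In slr-1, 8 rose and 5 fell, where 13.3% of all genes rose and 12.8% fell, so there the set was close to all genes in this step.

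Higher at 4 h than at 2 h in both lines were ADC2, bHLH093, BEL1, SAC51, UCN, AT1G49450, AT1G51340 and AT5G03890. ADC2 climbed through 1, 2 and 4 h, whereas the other 7 were up at 1 h and lay lower at 2 h than at 1 h in DMSO, except BEL1 in slr-1. On the scale of the rule the DMSO changes from 0 h at 1, 2 and 4 h in shy2-2 were 2.24, 3.12 and 4.25 for ADC2, 1.5, 0.53 and 1.57 for AT1G51340 and 1.48, 1.0 and 1.54 for SAC51. ADC2 (AT4G34710) encodes arginine decarboxylase, a first enzyme of polyamine synthesis, and took more counts at 6 h than any other gene of the set. In shy2-2 it had 2071, 3296 and 1893 CPM at 4 h and 1368, 1590 and 1424 CPM at 2 h under DEX, and 2670, 3349 and 2426 CPM at 4 h and 1284, 1079 and 1489 CPM at 2 h in DMSO. All 4 h libraries exceeded all 2 h libraries of the same treatment. The DMSO step from 2 to 4 h was 1.14 ± 0.26 in shy2-2 (edgeR adjusted p = 0.0065) and 1.20 ± 0.17 in slr-1 (edgeR adjusted p = 3.1e-05).

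BEL1 (AT5G41410), a homeodomain factor also known from ovule integuments, had 1.33, 2.09 and 2.72 CPM in DMSO in shy2-2 before auxin. In DMSO in shy2-2 it had 16.1, 13 and 9.64 CPM at 4 h, against 4.41, 4.08 and 6.18 CPM at 2 h, a step of 1.40 ± 0.26, and in slr-1 20.1, 20.2 and 13.1 CPM at 4 h, against 6.48, 8.68 and 7.17 CPM at 2 h, a step of 1.25 ± 0.21. bHLH093 (AT5G65640), a basic helix-loop-helix factor, had 200.5, 139 and 132 CPM at 1 h, 79.2, 80.2 and 93.6 CPM at 2 h and 196, 166 and 150.3 CPM at 4 h in DMSO in shy2-2. The 3 libraries of 2 h were below all of those of 1 and 4 h there. The step from 2 to 4 h was 1.03 ± 0.16 in shy2-2 and 0.95 ± 0.18 in slr-1. AT1G51340, with a step of 1.33 ± 0.29 in shy2-2 and 1.16 ± 0.26 in slr-1, and SAC51, a factor of the thermospermine pathway in vascular tissue, with a step of 0.55 ± 0.12 in shy2-2 and 0.45 ± 0.10 in slr-1, likewise had their 2 h libraries below all of those of 1 and 4 h in DMSO in shy2-2. The WD40 gene AT1G49450 made the largest steps of the 53, 1.70 ± 0.42 in shy2-2 and 1.46 ± 0.33 in slr-1. In shy2-2 alone ARF16, ARR7 and AT5G47060 were also called higher at 4 h, and they were not called in slr-1, a difference that was not tested.

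Lower at 4 h than at 2 h in both lines was AT5G47440, annotated as an auxin canalisation protein. In DMSO it had 21.6, 20.3 and 24.8 CPM at 4 h, against 36.3, 41 and 30.3 CPM at 2 h in shy2-2, a step of -0.68 ± 0.16, and stepped by -0.75 ± 0.13 in slr-1. In slr-1 PBP1, ERF11, IAA2 and UGT87A2 fell too. PBP1 (AT5G54490), a calcium-binding partner of the kinase PINOID, had 112, 164 and 126 CPM at 4 h and 214, 296 and 215 CPM at 2 h in DMSO, a step of -0.85 ± 0.17 (edgeR adjusted p = 0.00067). In shy2-2 its step was -0.52 ± 0.18 with an edgeR adjusted p of 0.070. Photosynthesis RNA was high in 1 DMSO library of 2 h in shy2-2 and in 2 in slr-1. Without the 8 libraries high in it, 5 of the 53 changed in each line. In shy2-2 the steps of ADC2, ARF16, ARR7, AT1G49450, AT5G03890, AT5G47060 and AT5G47440 were then not called, and in slr-1 those of SAC51, UCN, AT1G49450, AT1G51340, AT5G03890, ERF11, IAA2 and UGT87A2. Each kept its direction. In shy2-2 the step of ADC2 was then 1.02, that of AT1G49450 1.45, that of AT5G03890 0.96 and that of AT5G47440 -0.57. In slr-1, where this fit left 1 library of DMSO 2 h, assumed to vary like the other groups, the steps of AT1G49450 (1.54), UCN (0.50), ERF11 (-0.80) and IAA2 (-0.54) were larger in size than with all libraries and that of AT1G51340 (0.86) was smaller.

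None of the 53 steps from 2 to 4 h differed between DEX and DMSO by edgeR, where 0.0822% of all genes were called in shy2-2 and 2.25% in slr-1, and this contrast cancels a run difference of equal size at both times. At an unadjusted edgeR p under 0.05 there were 2 genes in shy2-2 (UCN and bHLH093) and 4 in slr-1 (IAA11, AT4G36430, UCN and ARF16). Of all genes it was 2100 of 21902 in shy2-2 and 3198 of 21864 in slr-1. DESeq2 called 0 of the 53 in shy2-2 and 0 in slr-1. The median difference of the steps, DEX minus DMSO, was -0.26 in shy2-2 with 47 of 53 below 0, where the median of all genes was -0.01, and -0.04 in slr-1 with 30 of 53 below 0. Without DEX 4 h replicate 3 the shy2-2 median was -0.12, with 42 of 53 below 0. The intervals were wide: they stayed within 1 log2 unit of 0 for 31 genes in shy2-2 and 42 in slr-1. Of all genes, 67.2% in shy2-2 and 68.4% in slr-1 had such an interval. For UCN the difference of the steps was -0.43 ± 0.18 in shy2-2 and -0.44 ± 0.17 in slr-1, with edgeR adjusted p of 0.42 and 0.19.

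**Figure D4:**
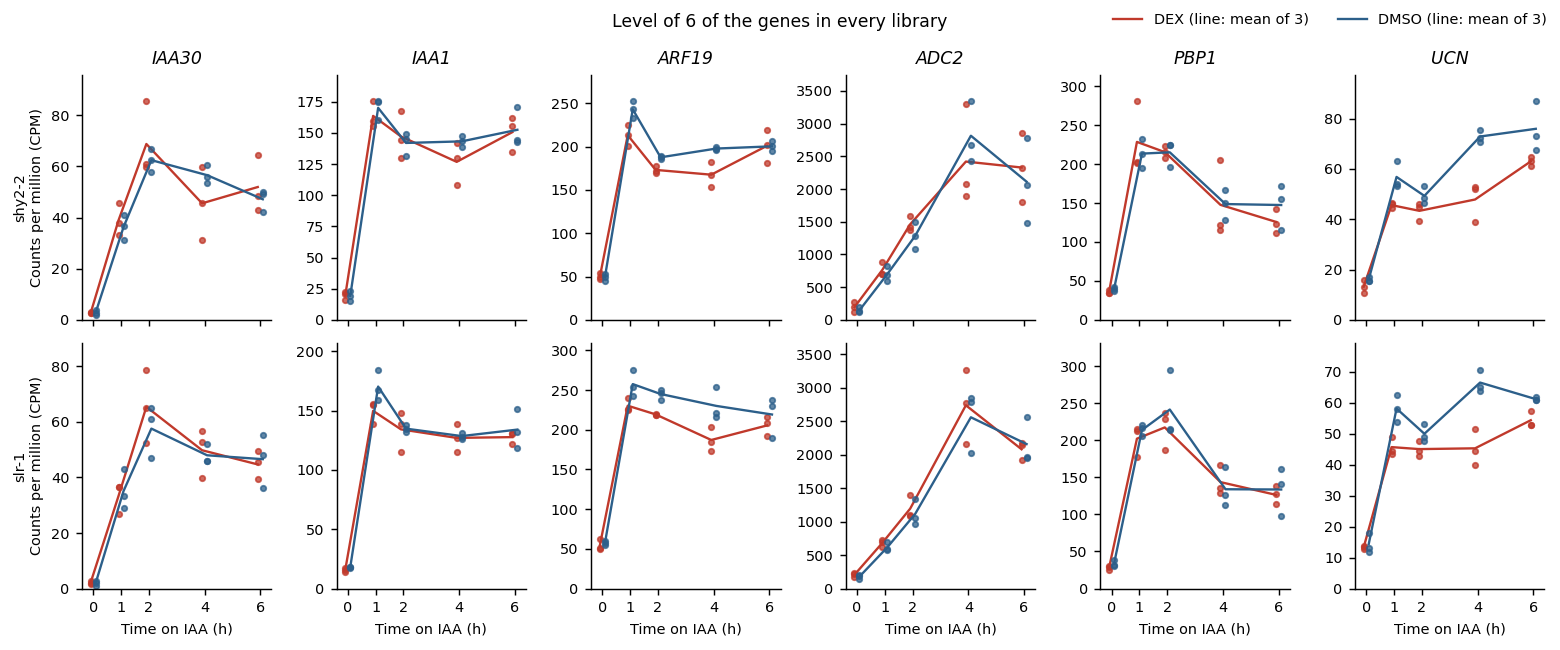
Levels in CPM (y axis, from 0) over hours on IAA (x axis) of 6 genes in the 2 lines; points are the 3 libraries of a group and lines join their means, DEX in red and DMSO in blue. IAA30, IAA1, ADC2 and PBP1 run similar courses in both treatments, while the DEX points of ARF19 and UCN lie below the DMSO points at 4 h.

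Among the genes of other hormones, GA2OX6 encodes a gibberellin-inactivating oxidase, CKX3 a cytokinin-degrading oxidase, ARR7 a type-A response regulator that damps cytokinin signalling, and CCD8 (MAX4) a cleavage enzyme of strigolactone synthesis. GA2OX6 had 65.5, 64.3 and 54.2 CPM at 4 h and 9.06, 12.5 and 11.9 CPM at 0 h under DEX in slr-1, a rise of 2.44 ± 0.13, and rose by 2.44 ± 0.19 in shy2-2. CKX3 had 34.5, 31.6 and 32.1 CPM at 1 h and 3.27, 3.72 and 3.73 CPM at 0 h under DEX in slr-1, with a rise at 1 h of 3.22 ± 0.17, and 3.37 ± 0.29 in shy2-2. All 3 libraries after auxin lay above all 3 before it in each of these. ARR7 rose by 1.75 ± 0.28 in shy2-2 and 1.76 ± 0.22 in slr-1 at 1 h, and CCD8, from under 1 CPM in all DEX libraries at 0 h, by 3.74 ± 0.29 in shy2-2 and 4.69 ± 0.24 in slr-1 at 4 h. CCD8 overlaps the gene AT4G32820 on the other strand. Of 17 cytokinin oxidases and type-A regulators, CKX3 and ARR7 were members and CKX6 and CKX7 were among the 136. Of these 17, 16 were tested, and 8 rose in shy2-2 and 9 in slr-1 under DEX at 4 h. Of 13 genes of gibberellin and brassinosteroid metabolism, GA2OX6 was a member and 2 were among the 136, and 8 rose and 1 fell in shy2-2, and 9 rose and 1 fell in slr-1.

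ERF11, an ethylene response factor that acts as a repressor, had 29.1, 27.6 and 33.8 CPM at 1 h and 2.04, 1.44 and 0.595 CPM at 0 h under DEX in shy2-2, and 30.2, 23.3 and 35.8 CPM at 1 h and 0.816, 1.53 and 1.36 CPM at 0 h in slr-1. All libraries of 1 h lay above all of 0 h, with a rise of 4.49 ± 0.36 in shy2-2 and 4.61 ± 0.25 in slr-1 on the log2 scale. HB17, a homeodomain-leucine zipper factor, rose by 3.06 ± 0.24 in shy2-2 and 2.65 ± 0.13 in slr-1 at 1 h. Of 42 ERF factors ERF11 alone was a member, and of 39 tested 18 rose and 4 fell in shy2-2, and 16 rose and 4 fell in slr-1, under DEX at 4 h. Of all genes, 15.1% rose and 11.1% fell in shy2-2 and 17.8% rose and 16.3% fell in slr-1.

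AT4G12410 and AT1G29500 are SAUR-like genes, a family of short early auxin genes linked to cell expansion. AT4G12410 had 0.994, 0.508 and 0.34 CPM at 0 h, 15.4, 13.6 and 16.9 CPM at 1 h and 8.54, 7.39 and 5 CPM at 4 h under DEX in shy2-2, so its highest values came at 1 h. The rise at 1 h was 4.69 ± 0.29 in shy2-2 and 5.51 ± 0.25 in slr-1. AT1G29500 rose by 3.15 ± 0.18 in shy2-2 and 2.74 ± 0.18 in slr-1 at 1 h, and by 2.02 ± 0.18 in shy2-2 and 1.84 ± 0.18 in slr-1 at 4 h. It has close copies in the genome, and reads that fit several copies were not counted, so its level is uncertain. BRX, a regulator of root growth, rose by 2.4 ± 0.24 in shy2-2 and 2.60 ± 0.17 in slr-1 at 1 h.

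The largest fitted rise was that of AT1G30190, annotated as a cotton fibre protein, which was all but silent before auxin. Its DEX libraries of 4 h held 1544 counts together in shy2-2 and 2078 in slr-1, against 3 and 5 counts in those of 0 h. The pooled CPM ratio, 4 h over 0 h, was 320.2 in shy2-2, with an exact binomial 95% interval of 109 to 1554, and 399 in slr-1, with an interval of 171 to 1231; both cover counting error only. Its fitted values, which set the upper ends of the ranges above, depend on the prior count. The next largest rises at 4 h were those of AT1G75360, at 4.16 ± 0.44 in shy2-2 and 5.0 ± 0.34 in slr-1. AT1G75360 overlaps AT1G75370 on the other strand over 309 bases, and 31.7% of its reads came from that strand, against a median of 1.3% over the 53.

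NIA2, a nitrate reductase, and ADC2 both act in nitrogen metabolism. NIA2 had 218, 153 and 132 CPM at 0 h and 766, 759 and 698 CPM at 1 h under DEX in slr-1, and stayed at 687, 638 and 699 CPM at 4 h. The rise at 1 h was 2.17 ± 0.16 there and 2.35 ± 0.16 in shy2-2. PGIP1, which inhibits fungal pectin-degrading enzymes, had a log2 change of 1.76 ± 0.16 at 1 h under DEX in shy2-2. It stood at 2.54 ± 0.17 at 2 h and was little different at 4 h, at 2.62 ± 0.17. BGLU11, a beta-glucosidase, had its largest of these values at 4 h, at 1.55 ± 0.21, 2.06 ± 0.22 and 2.63 ± 0.22. Steps between these hours under DEX were not tested. With ADC2, NIA2, PGIP1 and IAA2, the 6 genes with most counts at 6 h included DGR1, a cell wall protein of the DUF642 family, and AT1G60010. DGR1 rose by 2.01 ± 0.17 and AT1G60010 by 1.71 ± 0.20 under DEX at 4 h in shy2-2.

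Light-related genes were present too. FKF1, a blue light receptor of the clock, had 1.19, 5.42 and 4.63 CPM at 0 h, 11.6, 10.5 and 6.95 CPM at 1 h and 42.8, 42.9 and 45.6 CPM at 4 h under DEX in shy2-2, a slow rise that reached 3.51 ± 0.33. FKF1 has a daily rhythm, and the labels name no course without IAA. ELIP2, a protein of light-stressed plastids, had 63.4, 65.9 and 69.3 CPM at 1 h and 7.66, 24.5 and 5.32 CPM at 0 h under DEX in shy2-2. Its high 0 h value was that of replicate 2, 1 of the 8 libraries high in photosynthesis RNA. The rise at 1 h was 2.4 ± 0.43 in shy2-2 and 2.36 ± 0.40 in slr-1. On the scale of the rule, ELIP2 at 0 h was higher in DEX than in DMSO, by 1.0 in shy2-2 and 0.91 in slr-1. Its rise at 1 h on that scale was 2.32 under DEX and 3.35 in DMSO in shy2-2. In slr-1 it was 2.22 and 3.15, and these differences were not tested.

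Enzymes that modify small molecules formed another group: the glycosyltransferases UGT76D1, UGT87A2 and UGT75B1, the glutathione transferase GSTU4, the malonyltransferase PMAT1, the cytochrome P450 CYP72A8, the peroxidase AT4G36430, the oxidoreductase AT1G60730 and the methyltransferase AT2G41380. All 9 rose under DEX at 4 h in both lines, from 1.91 ± 0.17 (UGT87A2) to 3.67 ± 0.51 (AT4G36430) in shy2-2. Of 98 glutathione transferases and UGTs, 4 were members and none was among the 136. Of 91 tested, 31 rose and 17 fell in shy2-2 under DEX at 4 h, and of 90 tested 31 rose and 24 fell in slr-1. Of all genes 15.1% rose and 11.1% fell in shy2-2, and 17.8% rose and 16.3% fell in slr-1. DEX against DMSO at 4 h, 2 of this family were higher and 0 lower in shy2-2, and 13 higher and 0 lower in slr-1, none of them a member. Of all genes, 2.47% were higher and 8.38% lower in shy2-2, and 5.83% higher and 12% lower in slr-1. Of 229 genes listed as P450s, CYP72A8 alone was a member and none was among the 136. The list does not hold DWF4, a P450 of brassinosteroid synthesis that was among the 136. UGT75B1 is overlapped over its whole length by AT1G05562 on the other strand, as is PGIP1 by AT5G06865, and both were counted by strand.

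The other members were AT4G33070 (a pyruvate decarboxylase of fermentation), ATG8G (a ubiquitin-like protein of autophagy), EXO70E2 (an exocyst subunit of secretion), TIR, AT4G01870, emb2170 and the uncharacterised or loosely annotated genes AT3G51410, AT3G50800, AT5G66580, AT5G47060 and AT5G03890. At 4 h under DEX they rose by 1.54 ± 0.15 (AT5G66580) to 2.89 ± 0.48 (TIR) in shy2-2 and by 1.66 ± 0.14 (AT5G66580) to 3.09 ± 0.53 (TIR) in slr-1. AT4G01870, a tolB-like protein, was 1 of the 13 genes with their highest mean at 2 h under DEX in shy2-2. It had 148, 162 and 136 CPM at 1 h, 369, 322 and 336 CPM at 2 h and 180.1, 147 and 229 CPM at 4 h there.

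Between the lines, the DEX response of the 53 genes from 0 to 4 h gave no call, shy2-2 minus slr-1, where 0.00898% of the 22268 genes of the joint fit were called. At an unadjusted edgeR p under 0.05 there were 4, namely CCD8, AT4G12410, PGIP1 and AT5G47440, against 731 of all 22268 genes. DESeq2 called 0 of the 53. The median difference was -0.09, and 0.01 without shy2-2 DEX 4 h replicate 3. The 95% interval stayed within 1 log2 unit of 0 for 33 of the 53, and for 69.8% of all genes. For CCD8, the farthest from 0, the difference was -0.96 ± 0.39, with an interval of -1.76 to -0.17. The line is confounded with the run of some DEX groups, so line and run cannot be told apart here.

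The 53 genes had a median annotated length of 1.97 kb, and 17 of 53 (32.1%) had a transcript of 1 exon. The 136 had 2.05 kb and 32.4%. All annotated genes with at least 5 CPM in DMSO at 6 h in both lines had 2.55 kb and 13.3%. These shares are a description with no test. No 2 of the 53 genes lay within 3 genes of each other on a chromosome.

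At the edges of the rule, BEL1 (1.16) and FKF1 (1.17) were the members closest to the 1 h minimum, with AT4G37900 (0.995) and EARLI1 (0.89) just outside it, each value that of the line that decided. For the 6 h minimum it was AT1G51340 (1.54) and AT5G03890 (1.55), with RLP30 (1.49) and AT5G47070 (1.47) outside. For the fall after 1 h it was AT5G47440 (-0.99) and AT1G29500 (-0.83), with AT4G35200 (-1.02) and ELIP1 (-1.42) outside. For the DEX window it was AT5G47440 (0.29) and AT4G12410 (-0.29), with AT5G17760 (0.31) and AUF1 (-0.32) outside. For the level it was AT1G51340 (5.64 CPM) and AT5G03890 (6.42 CPM), with AT4G11340 (4.72 CPM) and AT1G17830 (4.03 CPM) outside. The DEX window decided most cases: 179 genes met every condition but this one.

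Because RNA came from whole root segments, fewer cells of a type and less RNA per cell cannot be told apart. The cell types that express each of the 53 genes were not analysed here.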

How the data were processed

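The authors deposited raw read counts per gene for 60 libraries, 3 in each of 20 groups. Per the submitters' processing notes, STAR 2.5.2b and TAIR10 were used, and DESeq2 is named without a version. The deposited files hold counts for both strands together and for each strand. Column 4 was used, since it held 93.6% to 96.4% of the reads of both strands in each library. Reads that fit several places were in rows that name no gene, which held 5.58% to 11.89% of a library and were left out, so genes with near copies may be counted low. Sequencing runs are known only from the run names. Of 32833 gene rows, 32548 matched the RefSeq annotation of TAIR10.1, which gave symbols and coordinates. The sequence before 1 gene is not reported here.

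Counts were fitted in edgeR 4.0.16 (R 4.3.3; TMM scaling, filterByExpr, robust quasi-likelihood test) over the 30 libraries of a line, and over all 60 for the difference between the lines. P-values were adjusted by Benjamini-Hochberg over all genes, and SE is the log2 fold change over the root of its F statistic. DESeq2 1.42.0 was an alternative. The fits were tested on simulated data. The counts of 2 replicates of a group always differed by more than sampling noise, so none was merged. Depth was 12146529 to 94077078 counts, and p-values and intervals cover no error shared by a group. The replicate numbers come from the labels, and only for DEX 4 h and DMSO 4 h in shy2-2 did every same-numbered pair correlate (r 0.10 to 0.57, deviations from group means).

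The genes and lists were chosen with earlier results of these data known. The text names the 12 genes with the largest rise, up to 6 a list, up to 4 called a comparison, those at the edges of the rule and the 6 with most counts; AT4G01870, AT5G66580 and genes listed by role were chosen after their values were seen. The alternatives were other scalings and filters, other rule settings, the replicate block, other strand columns, and fits without a library or without the libraries high in photosynthesis RNA.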

Additional observations from a re-analysis of the deposited data

How the results depend on the processing

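No single gene's call changed sign under an alternative. The number of genes that met the rule was 34 with a DEX window of 0.2 and 91 with one of 0.5, and 39 to 51 when 1 replicate number was left out of every group, of which 33 to 43 were among the 53. It was 47 to 58 under the other rule settings and 54 without the libraries high in photosynthesis RNA, 53 of them the same genes. The counts that rose under DEX stayed at 50 to 53 under every alternative. For DEX against DMSO at 4 h in shy2-2, 1 gene was called with no filter on low counts, 1 without the libraries high in photosynthesis RNA, 1 with counts of both strands and 1 when only the groups compared were fitted, and 1 to 3 when a library was left out. In slr-1 it was 2 to 6 when a library was left out and 7, 3 lower and 4 higher, when only the groups compared were fitted. Medians near 0 changed sign without 1 library: that of slr-1 was 0.04 without DMSO 4 h replicate 2, against -0.03, and that of the difference between the lines was 0.01 without shy2-2 DEX 4 h replicate 3, against -0.09. For the DMSO step from 2 to 4 h, 5 genes were called in shy2-2 and 5 in slr-1 without the libraries high in photosynthesis RNA. Leaving out 1 library gave 5 to 13 in shy2-2, where the 5 came without DMSO 2 h replicate 2, and 9 to 13 in slr-1. The causes were not tested. With the replicate number as a block the counts were 3 and 13 in shy2-2 and 5 and 14 in slr-1 for these 2 comparisons, against 2 and 12 and 5 and 13 without it; the added genes were AT5G66580, AT4G01870 and IAA11, and no other call changed. UGT75B1 could not be tested with counts of both strands. Over single genes and settings, 91 calls were lost and 31 gained, and 11152 kept their side of the threshold. At this depth and with 3 libraries a group, the median SE of a log2 difference between DEX and DMSO at 4 h was 0.23 in shy2-2 and 0.18 in slr-1.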
